A study of Arabidopsis thaliana with 4 samples.

Results

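The genes described here were strongly expressed in seedlings and lay moderately lower after the MYB-like transcription factor KUA1 had been induced. RNA was profiled from whole 14-day-old seedlings of KUA1-IOX, a stable transgenic Arabidopsis line in the Col-0 background in which the chimeric activator XVE, made constitutively, moves into the nucleus when estradiol is given and drives KUA1 from the LexA promoter. The groups were KUA1-IOX seedlings given 15 µM estradiol in liquid medium for 4 h and KUA1-IOX seedlings given the ethanol solvent alone for 4 h (mock), with 2 biological replicates each and 1 Affymetrix ATH1 array per replicate. One label field calls the mock genotype a control, whereas the titles and the methods name KUA1-IOX for both groups. Both groups carry the construct, and the 4 arrays hold no estradiol-treated plants without it, so the effects of estradiol and of KUA1 cannot be told apart.

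The members were chosen by their signals on these same 4 arrays. A probe set was taken where its mean MAS5 signal over the arrays was at least 100, in the arbitrary units of an array scaled to a trimmed mean of about 100.0, where the lower of the mock signals stood at least 25% above the higher of the estradiol signals, and where the geometric mean of mock was under 2 times that of estradiol. This ratio of the lower mock to the higher estradiol signal is called the gap below. The rule was met by 245 of 22746 probe sets, or 1.08%. They comprised 110 that the platform table pairs with 1 gene, of 13333 such genes in all, together with 3 that detect several genes and 132 that the table leaves unnamed. The 110 genes are the members described here, of which 23 have a name and 87 are known by their locus alone. Because the estradiol and mock signals chose the members, their differences are a description and carry no test.

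The named members described first, apart from a peroxidase, encode proteins of the chloroplast. Chloroplasts build chlorophyll and heme from a common tetrapyrrole pathway, capture light in the thylakoid membranes and fix carbon in the Calvin cycle, whose enzymes are switched on in the light by thioredoxins. Nearly all chloroplast proteins are encoded in the nucleus and imported, while a small set of subunits is encoded by the plastid genome itself. In green seedlings, transcripts of photosynthesis are among the most abundant of the nuclear genome.

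KUA1 had signals of 1887 and 3373 after estradiol, against 203 and 170.2 in mock, a log2 difference of 3.76, which fits the labels of all 4 arrays. Estradiol replicate 2 thus held the higher KUA1 signal. The array medians were close, at 37.5 and 36.1 for estradiol and 36.2 and 38.8 for mock. Of 14 cell type markers, 3 were measured under a name in the platform table. RCA, the Rubisco activase of leaf cells, had 2298 and 2624 after estradiol, against 2622 and 2693 in mock. PYK10, a β-glucosidase of roots, had 1861 and 1906 after estradiol, against 1994 and 2446 in mock, and EXPA7, an expansin of root hairs, had 27.7 and 22.9, against 35.1 and 55.2. All 3 thus had a lower mean after estradiol, by 0.11, 0.23 and 0.80 on the log2 scale, and their part in the values below was not tested. In whole seedlings, fewer cells of a type and less RNA per cell cannot be told apart.

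Among the 3183 bright genes, those with a mean signal of at least 100 and 1 locus, the 110 members made up 3.46%. With no limit on the fold, mock signals at least 25% above the estradiol signals were found in 121 bright genes or 3.8%, and estradiol signals as far above mock in 80 or 2.51%. The groups did not overlap at all, with both estradiol signals below both mock signals, in 20.1% of bright genes, and lay apart the other way in 17.3%. The log2 difference of the members, estradiol minus mock, ran from -0.99 to -0.38 with a median of -0.59, beside a median of 0.0075 over all bright genes. On the linear scale the median was a 1.51-fold lower signal after estradiol, and 10 members lay at 1.8-fold or more, 50 between 1.5-fold and 1.8-fold and 50 under 1.5-fold.

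**Figure D1:**
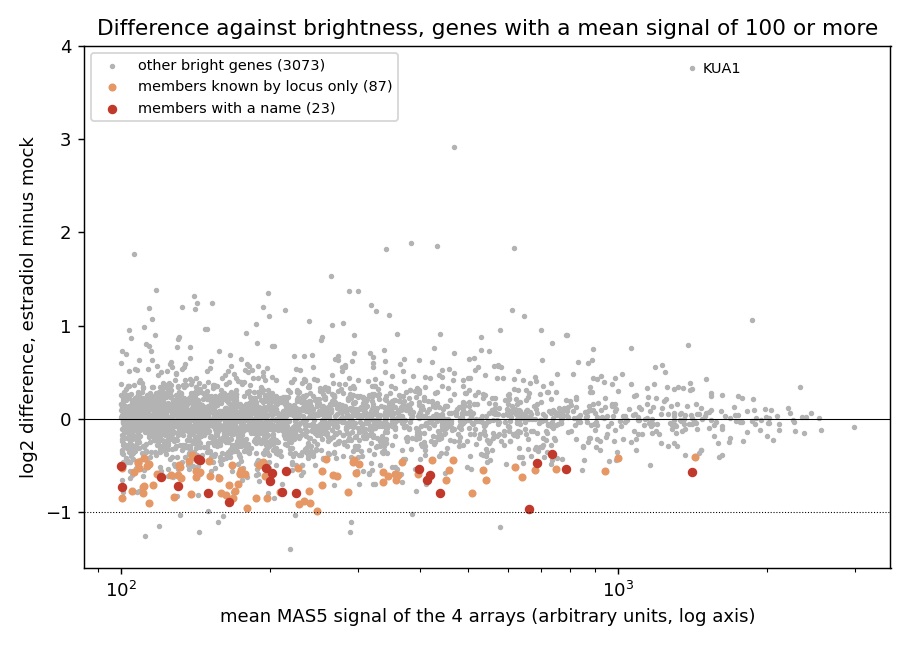
Log2 difference (estradiol minus mock, vertical axis) against the mean MAS5 signal of the 4 arrays (log axis) for the 3183 bright genes; each point is a gene, the dotted line marks a 2-fold lower signal. The 110 members lie between -0.99 and -0.38, a band that the rule confines, at mean signals up to 1428, and KUA1 stands apart at 3.76.

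Members were found in each band of signal examined, up to a mean signal of 1428, while bright genes reached 2984. Of the bright genes with a mean signal from 100 to under 200, 58 or 3.63% were members, with 37 or 3.53% from 200 to under 500, and 15 or 2.80% at 500 or above. Their median log2 differences in these bands were -0.61, -0.60 and -0.54. The gap was mostly narrow. Its median was 1.34, it was under 1.4 in 75 members, and it reached 1.5 in 14. Replicates of the members differed by a median of 0.13 on the log2 scale in each group, against 0.19 between estradiol replicates and 0.21 between mock replicates over bright genes, a closeness that the required gap favours. Estradiol replicate 2 had the higher of the estradiol signals in 66 members and replicate 1 in 44, and mock replicate 1 had the higher of the mock signals in 59 and replicate 2 in 51.

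Prx21 (AT2G37130), a class III peroxidase, the family of secreted enzymes that use hydrogen peroxide at the cell wall, had the largest drop of the named members. Its signals were 405 and 492 after estradiol, against 932 and 820.0 in mock. The gap was 1.67, and the mean was 449 ± 61.8 after estradiol and 876 ± 79.3 in mock (SD, n = 2 each), a log2 difference of -0.97 (SE 0.17). The name comes from the study's primer list, since the platform table gives only the locus. The list of class III peroxidases searched here covers only part of the family. It misses every peroxidase gene that the study measured by qRT-PCR, Prx21 and AT5G19890, described below, among them. The study reported most of those genes lower after KUA1 induction, so the counts of the list do not stand for the family. Of the 6 genes on the list 2 were bright and 4 had mean signals of 3.76 to 26.9. Among the 6 genes 0 lay wholly lower and 2 wholly higher after estradiol, beside 17.6% and 15.5% of all genes.

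On the list of the tetrapyrrole pathway, 3 of the 6 bright genes were members, and they act at 2 steps. HEME1 (AT3G14930) and HEME2 (AT2G40490) encode uroporphyrinogen decarboxylase, which acts before the branch towards heme and chlorophyll. HEME1 had signals of 171 and 176 after estradiol, against 244 and 268 in mock, a log2 difference of -0.56 (SE 0.07). HEME2 had 329 and 319.7 after estradiol, against 412 and 535 in mock, a difference of -0.53 (SE 0.19), so that the spread lay mainly between the mock arrays. These are the only HEME genes of that enzyme in the table, and both were members.

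CHLM (AT4G25080), the methyltransferase of Mg-protoporphyrin IX in the chlorophyll branch, had signals of 602 and 683 after estradiol, against 952 and 911 in mock, a log2 difference of -0.54 (SE 0.10). It was the brightest member of the pathway, with a gap of 1.33. The other bright genes of the list were HEMB1 at -0.17, GSA1 at -0.33 and PORB at -0.78. HEMB1 and GSA1, which act early in the pathway, did not overlap between the groups but missed the gap, whereas PORB, a protochlorophyllide oxidoreductase, had 425 and 169 after estradiol, against 322 and 654 in mock, and overlapped. CHLI2, a subunit of Mg-chelatase, had a larger difference of -1.19 but a mean signal of only 91.6. Of all 11 measured genes of the list, 7 lay wholly lower after estradiol and 0 wholly higher, beside 17.6% and 15.5% of all genes. The 7 include the 3 members, which the rule required to lie lower, so nothing is read from this count.

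NdhN (AT5G58260) and NdhL (AT1G70760) encode subunits of the chloroplast NDH complex, which passes electrons from ferredoxin back to plastoquinone around photosystem I. NdhN had signals of 109 and 122 after estradiol, against 217 and 211 in mock, a log2 difference of -0.89 (SE 0.08). Its gap of 1.73 was the second widest of the members. NdhL had 142 and 183 after estradiol, against 243 and 239.9 in mock, a difference of -0.58 (SE 0.18), with the estradiol arrays further from each other than the mock arrays.

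The NDH list holds 18 measured genes, 8 encoded in the nucleus and 10 in the plastid genome. All 8 nuclear genes had a negative difference, 7 of them without overlap, and their median log2 difference was -0.77. The 7 include the members NdhN and NdhL, which the rule required to lie lower. Of the 10 plastid genes, 0 lay wholly lower and 4 wholly higher after estradiol, with a median of 0.20. Only ndhI, ndhC and ndhA among the plastid genes had mean signals of at least 100. The wholly higher genes were ndhC and ndhA together with the dim ndhH and ndhK, at mean signals of 60.6 and 21.6. Over all genes, 17.6% lay wholly lower and 15.5% wholly higher. The exception to non-overlap among the nuclear genes was NdhS, a further subunit, with 211 and 384 after estradiol, against 503 and 327 in mock. The nuclear genes include the assembly and RNA-editing factors CRR21, CRR22, CRR28, CRR41 and CRR42, all with mean signals under 100 and therefore outside the rule. The direction of the median on each side was the same under the other scalings and with each array left out, from -0.96 to -0.48 for the nuclear and from 0.12 to 0.23 for the plastid genes. These settings reuse the same arrays, on which NdhN and NdhL were chosen, so they lend the direction no separate support.

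No plastid-encoded gene was among the members. The array measures 69 such genes under a name, 33 of them bright. Of these 33, 1 lay wholly lower and 12 wholly higher after estradiol, beside 20.1% and 17.3% of all bright genes, with a median log2 difference of 0.16. The list of subunits of the photosystems, the cytochrome complex and ATP synthase gave no member, and its medians differed the same way. Of 26 plastid genes on that list 0 lay wholly lower and 6 wholly higher, with a median of 0.10. Of 6 nuclear genes 4 lay wholly lower and 0 wholly higher, with a median of -0.19. Over all genes the shares were 17.6% and 15.5%. PSAN, a nuclear-encoded subunit of photosystem I, came nearest to the rule, with 1219 and 1141 after estradiol, against 1502 and 1585 in mock, a gap of 1.23. The difference between nuclear and plastid genes was not tested.

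**Figure D2:**
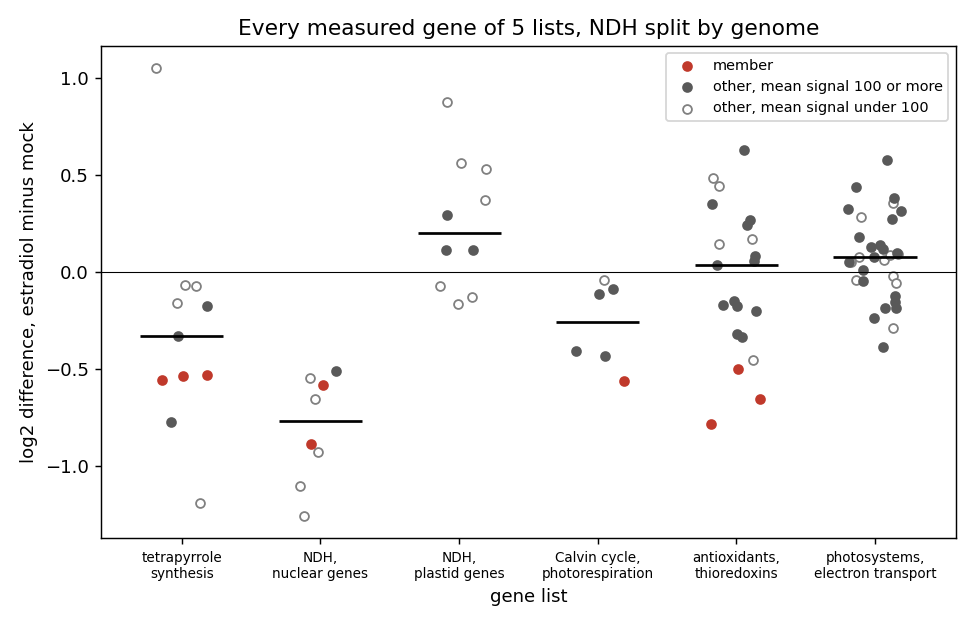
Log2 difference (estradiol minus mock) of each measured gene of 5 gene lists, with the NDH list split into nuclear and plastid genes; red points are members, dark grey points other bright genes, open points genes with a mean signal under 100, and black bars the medians of the columns. The 8 nuclear NDH genes all lie below 0, around a median of -0.77, and the 10 plastid NDH genes around 0.20.

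Other members act in the assembly and shape of the thylakoid membrane. PAM68 (AT4G19100), needed for the assembly of photosystem II, had signals of 89.0 and 101 after estradiol, against 143 and 149 in mock, a log2 difference of -0.62 (SE 0.10). SECE1 (AT4G14870), a subunit of the Sec translocase that inserts proteins into thylakoids, had 183 and 148 after estradiol, against 276 and 295 in mock, a difference of -0.79 (SE 0.16). The gaps of PAM68 and SECE1 were 1.41 and 1.51.

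CURT1C (AT1G52220), one of the proteins that bend the thylakoid membrane at grana margins, had signals of 622 and 660.4 after estradiol, against 830.4 and 836 in mock. Its log2 difference of -0.38 (SE 0.04) was the smallest of all members, and the mock arrays differed by less than the estradiol arrays. The other CURT1 genes measured, CURT1A at -0.21 and CURT1D at -0.24, lay wholly lower too, but with gaps short of the rule. CURT1A was the brightest of the family, with 1507 and 1612 after estradiol, against 1717 and 1890.4 in mock.

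Stromal and thylakoid redox proteins gave 3 members. TRXF2 (AT5G16400), an f-type thioredoxin that activates Calvin cycle enzymes, had signals of 170.0 and 141 after estradiol, against 263 and 270.5 in mock, a log2 difference of -0.78 (SE 0.14). The y-type thioredoxin ty2 (AT1G43560), whose type supplies electrons to antioxidant enzymes, had 357 and 284 after estradiol, against 554 and 456 in mock, a difference of -0.66 (SE 0.22). Estradiol replicate 2 was the lowest array for both genes.

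TAPX (AT1G77490), the thylakoid ascorbate peroxidase that removes hydrogen peroxide, was the dimmest member, with signals of 91.1 and 75.1 after estradiol, against 120.0 and 114 in mock, a log2 difference of -0.50 (SE 0.14). Its stromal counterpart SAPX was brighter, with 484 and 503 after estradiol, against 626 and 620 in mock, and at -0.34 missed the gap by a small margin, at 1.23. The thioredoxins ATHM2 and THX had differences of -0.15 and -0.20, with overlap for THX, and the dim TY1, the other y-type gene, had 71.3 and 69.2 after estradiol, against 49.0 and 54.2 in mock. Of the thioredoxins of these types, TY1 was the one with both estradiol signals above both mock signals. Over the whole list of antioxidant and thioredoxin proteins, 6 of 21 genes lay wholly lower and 4 wholly higher, with a median log2 difference of 0.04. The 6 include the 3 members, and the shares over all genes were 17.6% and 15.5%.

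PRK (AT1G32060), the phosphoribulokinase that regenerates the CO2 acceptor of the Calvin cycle, was the brightest named member. Its signals were 1100.3 and 1176 after estradiol, against 1773 and 1599.7 in mock, and the means were 1138 ± 53.7 and 1686 ± 122 (SD, n = 2 each), a log2 difference of -0.57 (SE 0.09). The spread between replicates was small beside the distance between the groups, which the required gap favours. Among 6 genes caught by the list of the Calvin cycle and photorespiration, PRK was the single member. The list matches symbols and synonyms, so it misses genes known by locus alone and can catch unrelated genes. SBPASE, a bisphosphatase of the cycle, had 581 and 677 after estradiol, against 835 and 862 in mock, and with a gap of 1.23 lay just outside, and HPR, a peroxisomal reductase of photorespiration, had a difference of -0.41 and barely separated groups. RCA overlapped.

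A further pair of members serve the plastid in other ways. RAP (AT2G31890), a factor of plastid 16S ribosomal RNA maturation, had signals of 91.9 and 128 after estradiol, against 211 and 168 in mock, a log2 difference of -0.79 (SE 0.29), the largest standard error among the named members. THIC (AT2G29630), which makes the pyrimidine part of thiamine, had 165 and 145 after estradiol, against 239.8 and 249 in mock, a difference of -0.66 (SE 0.10). By these roles, assigned after the values were seen, 14 of the 23 named members encode chloroplast proteins, with a median log2 difference of -0.60. The same share over all bright genes was not counted, since most genes have no role in the tables used here.

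**Figure D3:**
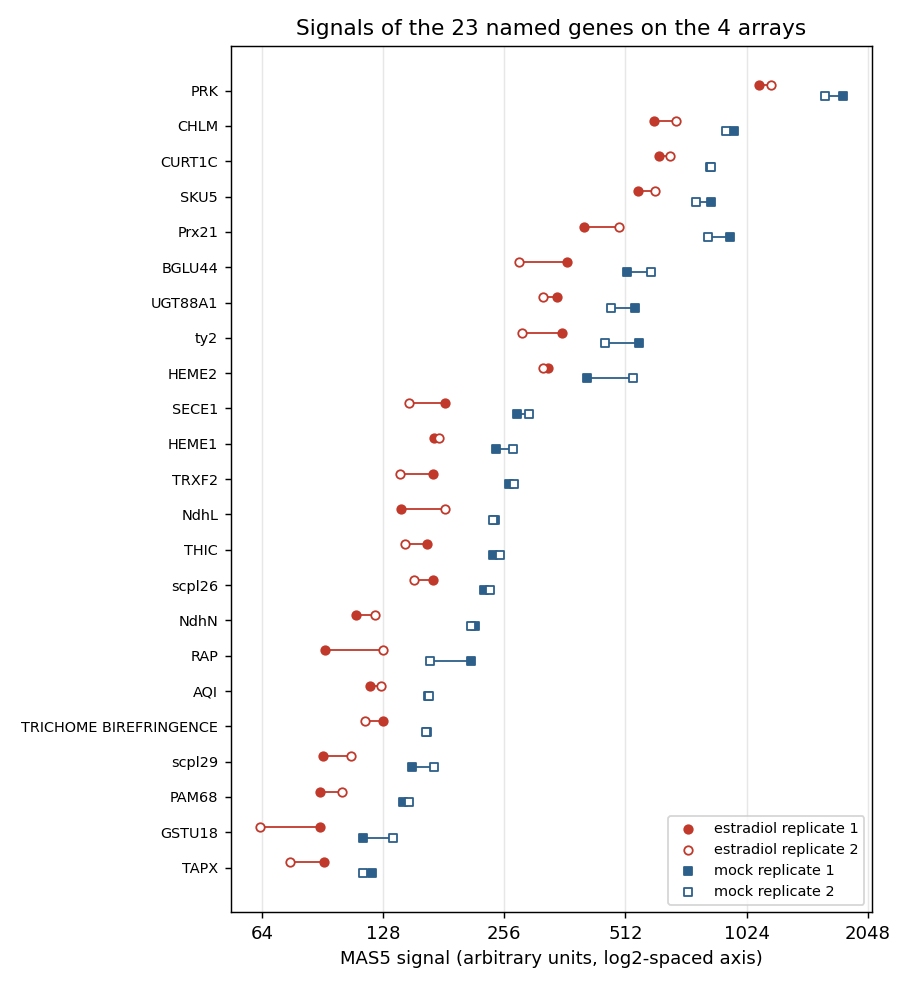
MAS5 signal (log2-spaced axis) of the 23 named members on each array, sorted by mean signal, with circles for estradiol and squares for mock and lines joining replicates. Both circles lie left of both squares in every row, as the rule required, from TAPX at a mean signal of 100.2 to PRK at 1412.

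Outside the chloroplast, members of the cell surface were SKU5 and TRICHOME BIREFRINGENCE beside Prx21. SKU5 (AT4G12420), a membrane-anchored protein related to multicopper oxidases that affects the direction of root growth, had signals of 549 and 605 after estradiol, against 835 and 765 in mock, a log2 difference of -0.47 (SE 0.09). TRICHOME BIREFRINGENCE (AT5G06700), needed for crystalline cellulose in the secondary walls of trichomes, had 128 and 115 after estradiol, against 164 and 163 in mock, a difference of -0.43 (SE 0.07). The mock arrays were nearly equal for this gene. Among its relatives, 3 were bright with it included. TBL25 lay wholly lower at -0.34, and TBL37 overlapped between the groups, with 352 and 597 after estradiol, against 455 and 313 in mock.

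Enzymes of sugar conjugates were also represented. BGLU44 (AT3G18080), a glycoside hydrolase of the β-glucosidase family, had signals of 366 and 278 after estradiol, against 516 and 594 in mock, a log2 difference of -0.80 (SE 0.22), and UGT88A1 (AT3G16520), a glucosyltransferase, had 346 and 320.2 after estradiol, against 539.5 and 471 in mock, a difference of -0.60 (SE 0.11). Of the 4 bright BGLU genes BGLU44 was the only member, and the other 3 lay between -0.23 and 0.03. The glucosyltransferases were not counted as a family. UGT88A1 was the single member among 56 genes caught by the list of phenylpropanoid and flavonoid synthesis. Of these 56, 9 lay wholly lower and 12 wholly higher, beside 17.6% and 15.5% of all genes.

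The serine carboxypeptidase-like genes, whose products are related to peptidases and in part act as acyltransferases, gave 2 members. For scpl29 (AT4G30810) the signals were 90.5 and 107 after estradiol, against 151 and 172 in mock, a log2 difference of -0.71 (SE 0.15), and for scpl26 (AT2G35780) they were 169.8 and 152 after estradiol, against 228 and 236 in mock, a difference of -0.53 (SE 0.08). Of the 5 bright genes of this family 4 lay wholly lower, the 2 members included, beside 20.1% of all bright genes. SCPL49 had a difference of -0.29 and scpl25 one of -0.61 with a wide standard error of 0.36, while scpl48 lay wholly higher, at 0.19.

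GSTU18 (AT1G10360), a tau-class glutathione S-transferase, had signals of 89.2 and 63.3 after estradiol, against 114 and 135 in mock, a log2 difference of -0.72 (SE 0.28). It was among the dimmest members, at a mean signal of 100.4, and its estradiol arrays lay far apart. The other bright GSTU genes overlapped, with differences from -0.22 to 0.08. Only 11 GSTU genes were counted here. Of the GSTU genes that the study measured by qRT-PCR and reported higher after induction, they include GSTU22 alone. The dim GSTU22 lay wholly higher, with 70.6 and 64.4 after estradiol, against 22.2 and 30.8 in mock, as did the dimmer GSTU21. These values therefore do not stand for the family. AQI (AT4G38220), named as an aquaporin interactor, had 119 and 126 after estradiol, against 166 on each mock array, a difference of -0.44 (SE 0.04).

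Of 28 gene lists searched by symbol and synonym, 26 had a measured gene and 7 a member, and 11 of the 110 members were on any list. The member on the aquaporin list was AQI, which is no aquaporin itself, and that on the list of protein kinases was PRK, caught by the word kinase. Matching by word can catch unrelated genes on the other lists too, so their counts are approximate. Lists without a member included that of transcription factors, which caught 86 genes, of which 13 lay wholly lower and 13 wholly higher. Also without a member were the lists of chromatin (34 genes, with 5 and 7), wall loosening and pectin (35, with 8 and 2) and transporters (43, with 11 and 5). Over all genes, 17.6% lay wholly lower and 15.5% wholly higher. The list of light-harvesting proteins caught 3 genes, LHCB4.1, LHCB4.2 and LHCB4.3, which lay wholly lower without a member. A search by symbol and synonym misses genes given by locus alone, so these 3 do not stand for the antenna proteins. Their log2 differences were -0.13, -0.54 and -0.35.

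Of the members known by locus alone, AT4G33660 had the largest drop of all, with signals of 141 and 193 after estradiol, against 361 and 297 in mock, a log2 difference of -0.99 (SE 0.27). AT1G70820 followed Prx21, with 105 and 139.7 after estradiol, against 266 and 207 in mock, and AT1G75460 had 159 and 157, against 329.9 and 268. The estradiol arrays were nearly equal for AT1G75460 while the mock arrays were not. AT1G27480 had the widest gap of the members at 1.74, with 81.6 and 77.3 after estradiol, against 155 and 142 in mock. AT4G07820 and AT4G34290, also among the 10 largest drops, lay at -0.90 (SE 0.32) and -0.85 (SE 0.20), both with mock arrays far apart.

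The brightest member was AT5G24490, with signals of 1209.8 and 1244 after estradiol, against 1688 and 1570.3 in mock, a log2 difference of -0.41 (SE 0.06). AT3G47070 had 828 and 887 after estradiol, against 1134 and 1159 in mock, a difference of -0.42 (SE 0.05), and AT4G16980 had 724 and 804, against 1070.4 and 1172, a difference of -0.55 (SE 0.10). In these bright genes the replicates lay close together and each difference was smaller than the members' median. AT1G11860 and AT2G37660 completed the 10 brightest members, both at -0.54 (SE 0.06 and 0.07). AT1G05140 combined a larger drop of -0.80 with a small spread (SE 0.04), with 114 and 118 after estradiol, against 205 and 198 in mock.

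The members were spread over the nuclear chromosomes, with 31 on chromosome 1, 19 on chromosome 2, 23 on chromosome 3, 20 on chromosome 4 and 17 on chromosome 5. As a share of the bright genes of each this was 3.95%, 4.03%, 3.47%, 4.20% and 2.27%. By gene order in the TAIR10.1 annotation a few members were neighbours. AT1G33810 and AT1G33811 were adjacent, as were AT4G33660 and AT4G33666, and AT2G39670 and AT2G39710 had 3 genes between them. AT4G33666 had 339.7 and 363 after estradiol, against 597 and 509 in mock, so that it lay lower beside the member with the largest drop.

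On chromosome 2, AT2G29290, AT2G29310 and AT2G29320 were members with a single gene, AT2G29300, among them. AT2G29290 had signals of 156 and 174 after estradiol, against 310.2 and 294 in mock, a log2 difference of -0.87 (SE 0.09). AT2G29310 had 152 and 129 after estradiol, against 227 and 281 in mock, a difference of -0.85 (SE 0.20), and AT2G29320 had 112 on each estradiol array, against 164 and 180.1 in mock, a difference of -0.62 (SE 0.07). The intervening AT2G29300 was dim, with 35.4 and 19.4 after estradiol, against 36.9 and 40.1 in mock. Further along, the bright AT2G29340 and AT2G29360 lay wholly lower by smaller amounts, at -0.28 and -0.24, and TRI and AT2G29370 overlapped between the groups. Whether the probe sets of these neighbours share sequence was not examined.

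**Figure D4:**
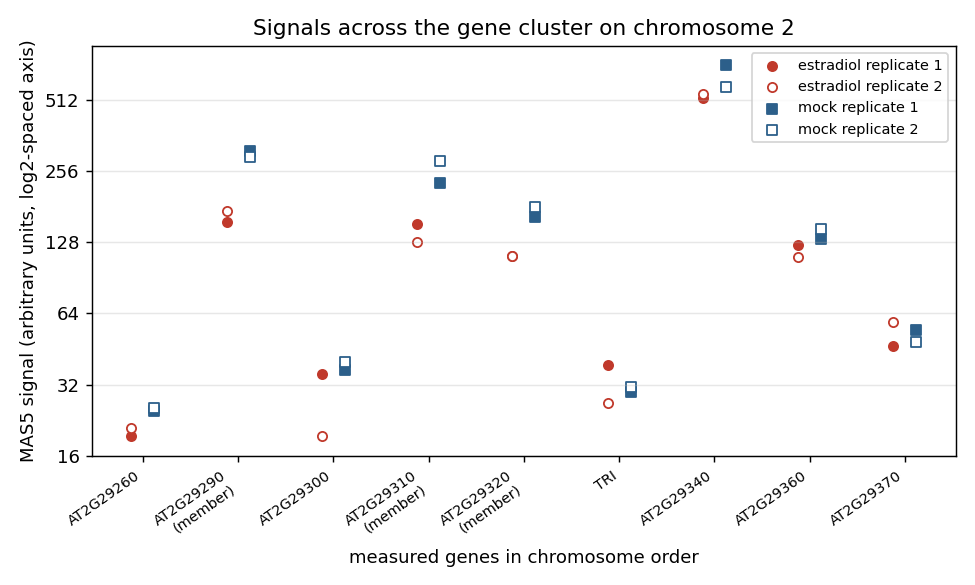
MAS5 signal (log2-spaced vertical axis) of the 9 measured genes from AT2G29260 to AT2G29370 in chromosome order (horizontal axis, not to scale), with circles for estradiol and squares for mock. The 3 members lie at signals of 112 to 174 after estradiol, against 164 to 310.2 in mock.

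The limits of the rule ran through closely similar genes. For the mean signal, TAPX at 100.2 and GSTU18 at 100.4 were just inside, while scpl42 at 98.2 and AT1G29530 at 97.0 were just outside. For the gap, AT1G09900 at 1.251 and HEME2 at 1.252 were inside and AT1G15290 at 1.2499 and AT3G23080 at 1.243 were outside. For the fold, AT4G33660 at 1.99 and Prx21 at 1.96 were inside, and Cpn60beta2, a chaperonin subunit of the plastid, at 2.02 and the peroxidase gene AT5G19890 at 2.04 were outside. Cpn60beta2 had signals of 185 and 341 after estradiol, against 524 and 492 in mock. The 22 bright probe sets that passed the gap but not the fold limit are not described here.

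The 132 unnamed probe sets that met the rule had a median log2 difference of -0.61, from -0.94 to -0.36. Of the bright probe sets absent from the platform table, 4.26% met the rule, beside 3.8% of all bright probe sets. The 3 probe sets of several genes detected GYRB1 and GYRB2, the gyrase B genes, at -0.52 (SE 0.03), ARAB-1 and AT1G28660 at -0.88 (SE 0.29), and AT2G28020 and AT2G28230 at -0.52 (SE 0.09). Such a signal cannot be divided between its genes.

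In limma, fitted over all 22746 probe sets with Benjamini-Hochberg adjustment, 0 probe sets were called lower and 0 higher at an adjusted p under 0.05, a background of 0%, and 0 of the 110 members were called. Their smallest adjusted p was 0.346. At an unadjusted p under 0.05 stood 1481 probe sets, or 6.51%, and all 110 members, from which nothing is read because the rule had selected them on the same contrast. The methods' t-test after the same adjustment called 0 probe sets, and at an unadjusted P under 0.05 together with at least 2-fold it gave 263, of which 0 were members, since the rule caps the fold. With 2 arrays a group, p-values measure the spread between these biological replicates only.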

How the data were processed

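Total RNA of KUA1-IOX seedlings was hybridized to ATH1 arrays, 2 for estradiol and 2 for mock. Values are the MAS5 signal intensities that the authors deposited for every probe set on a linear scale, and each array has a mean of about 100.0 once the lowest and highest 2% are left out. No source used here gives the MAS5 version. MAS5 signals of dim probe sets are noisy, which the minimum of 100 limits. No detection calls were used, and the number of arrays limits the precision.

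Of 22810 probe sets, 64 controls were left out. Loci came from the platform table, which lists 14016, with symbols and gene order from the TAIR10.1 RefSeq table; the brightest probe set meeting the rule stood for a locus. Differences are means of log2 signals, with no offset. Log2 signals of all probe sets were fitted in R 4.3.3 with limma 3.58.1 (lmFit, eBayes with an intensity trend, Benjamini-Hochberg). The limma fit was tested on simulated data, and the other steps ran in Python 3.11.15. Genes named were the 10 largest drops, the 10 brightest, up to 6 per list, those next to a threshold and KUA1; other named members, relatives and neighbours were added after their values were seen. The members and the 28 lists were chosen with earlier results of these data known. Alternatives were other scalings, an offset of 32, other thresholds, left-out arrays, replicate blocks and the methods' t-test. Promoter and protein sequences were not analysed here.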

Additional observations from a re-analysis of the deposited data

How the results depend on the processing

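Against 110 genes, the rule gave 112 with quantile normalization, 84 with each array scaled to a common median and 83 with 32 added to the signals, sharing 106, 73 and 76 with the 110. Leaving out an array, which relaxes the requirement on its group, gave 218 genes without estradiol replicate 1, 310 without estradiol replicate 2, 259 without mock replicate 1 and 229 without mock replicate 2, of which 108, 102, 97 and 99 were among the 110. A gap of 1.1 gave 303 genes and one of 1.5 gave 14, and a mean signal of at least 50 gave 166 and of at least 200 gave 52. The members' median log2 difference of -0.59 was -0.57 with median scaling, -0.52 with 32 added, and -0.60 to -0.57 with an array left out.

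Same-numbered replicates deviated in opposite directions over bright probe sets (r = -0.39, a description over 6454 probe sets), and neither pairing is stated in the labels. With the replicate number as a block limma called 0 probe sets and 0 members. A crossed block, added after seeing the data, called 3 probe sets, 0 lower and 3 higher, and 0 members, with 2336 probe sets at an unadjusted p under 0.05 against 1481 without a block. The methods' t-test at an unadjusted P under 0.05 with at least 2-fold gave 263, of which 120 were lower and 143 higher. The other alternatives of the limma fit called 0 probe sets. Of the values of single genes and of lists under other scalings, 5 of 69 and 7 of 78 moved by more than the replicate spread or by the set margin, and 5 of 26 lists had medians that changed sign under a scaling, all within 0.081 of 0 (cell wall proteins, sulfur, transcription factors, transporters and chromatin). The promoter motif search and protein lengths were not run.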
